A study of Mus musculus with 9 samples.

Results

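The genes of branched-chain amino acid catabolism were described in left ventricular tissue of C57BL6J mice aged 16 weeks. The group holds 10 genes of the 52636 in the count table, namely *Bcat2*, *Bckdha*, *Bckdhb*, *Dbt*, *Ppm1k*, *Ivd*, *Mccc1*, *Mccc2*, *Hibadh* and *Hibch*, and all 10 passed the expression filter that left 16322 genes. They were chosen by name as a pathway, with earlier results of these data known. Total RNA was sequenced in 9 libraries, with a WT label on libraries 1 to 5 and a KO label on libraries 6 to 9. The KO was made by crossing *Vdac2* flox/flox mice with αMHC-Cre mice, a transgene that drives Cre in cardiac myocytes, and WT mice carried either flox or Cre alone. Non-myocytes of a KO ventricle thus still hold *Vdac2*, which encodes a porin of the outer mitochondrial membrane.

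The level of *Vdac2* did not follow the labels. It was 20.2, 21.3, 20.5 and 19.1 CPM (counts scaled to the TMM-normalized library size) in libraries 1, 5, 7 and 9, and 366, 365, 384 and 421 CPM in libraries 2, 4, 6 and 8. Library 3, labelled WT, held 58.5 CPM. Libraries 1 and 5 are therefore labelled WT with a low level, and libraries 6 and 8 are labelled KO with a high level. Genotype was not reassigned. The libraries were set side by side as selected on measured *Vdac2*, 4 under 100 CPM and 4 over 300 CPM, and that contrast is a description with no test. Library 3 lies under 100 CPM as well and is shown apart. Each of these sets holds 2 libraries labelled WT, all from lane 1, and 2 labelled KO, all from lane 2. Tests were run on the deposited labels only, where lane and label cannot be told apart. The labels also run with sex, since *Xist* reached 335 to 587 CPM under the KO label and no more than 0.152 CPM under the WT label. Between 27345052 and 44673988 reads were counted per library, and the lowest count of any member was 337, for *Bckdhb* in library 3. The 9 cardiomyocyte markers were present in every library. Nothing in the labels says whether the libraries came from separate mice. The paper lists n = 4 for RNA sequencing where it gives its numbers of mice. The p-values measure the spread between libraries. The 2 most similar libraries differed by a chi-square of 7.35 per gene, well above the 1 that sampling noise gives, so each was counted once.

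Leucine, isoleucine and valine are broken down inside mitochondria. BCAT2 moves the amino group to 2-oxoglutarate, and the branched-chain ketoacid dehydrogenase complex (BCKDH) then commits the carbon skeleton to oxidation. BCKDH consists of an E1 enzyme built from BCKDHA and BCKDHB, the E2 core DBT, and the shared E3 subunit DLD. The kinase BCKDK phosphorylates BCKDHA and switches the complex off, and the phosphatase PPM1K switches it on again. Leucine carbon passes through IVD and the biotin enzyme methylcrotonyl-CoA carboxylase (MCCC1 and MCCC2), and valine carbon passes through HIBCH and HIBADH. The heart is known to oxidise branched-chain ketoacids, and KLF15 is known as a transcription factor of this pathway in heart muscle.

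The promoters of members whose low and high *Vdac2* libraries did not overlap are shown, because these genes differed together between the sets of libraries. The windows run from 250 bases before to 50 bases after the RefSeq start on GRCm38.p6, 5′ to 3′ on the strand of the gene, and 9 of the 10 members matched an entry. *Dbt* has no window here. They lie at chr9:83924887-83925186 on the plus strand for *Bckdhb*, chr2:118861744-118862043 on the plus strand for *Ivd*, chr13:100015590-100015889 on the minus strand for *Mccc2* and chr6:52640251-52640550 on the minus strand for *Hibadh*. The capitals mark CACCC, the box that KLF factors bind, searched on both strands (GGGTG is its reverse complement).
Bckdhb: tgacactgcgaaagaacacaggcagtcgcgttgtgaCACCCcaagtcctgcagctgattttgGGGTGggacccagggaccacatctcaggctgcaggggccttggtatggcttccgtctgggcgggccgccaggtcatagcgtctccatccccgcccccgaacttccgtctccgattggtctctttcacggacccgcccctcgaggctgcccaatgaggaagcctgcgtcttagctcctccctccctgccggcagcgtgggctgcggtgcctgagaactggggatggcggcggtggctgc
Ivd: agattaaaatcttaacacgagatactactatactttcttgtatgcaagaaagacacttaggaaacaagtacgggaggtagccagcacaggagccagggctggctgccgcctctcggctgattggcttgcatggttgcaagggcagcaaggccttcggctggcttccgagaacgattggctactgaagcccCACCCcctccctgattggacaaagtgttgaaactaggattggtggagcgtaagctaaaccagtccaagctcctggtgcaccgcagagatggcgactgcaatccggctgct
Mccc2: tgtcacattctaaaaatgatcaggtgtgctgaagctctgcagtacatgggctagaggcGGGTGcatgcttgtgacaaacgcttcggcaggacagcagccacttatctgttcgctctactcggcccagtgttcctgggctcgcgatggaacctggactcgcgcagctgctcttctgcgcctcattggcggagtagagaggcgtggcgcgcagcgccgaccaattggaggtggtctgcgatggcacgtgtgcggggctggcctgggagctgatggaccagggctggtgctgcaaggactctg
Hibadh: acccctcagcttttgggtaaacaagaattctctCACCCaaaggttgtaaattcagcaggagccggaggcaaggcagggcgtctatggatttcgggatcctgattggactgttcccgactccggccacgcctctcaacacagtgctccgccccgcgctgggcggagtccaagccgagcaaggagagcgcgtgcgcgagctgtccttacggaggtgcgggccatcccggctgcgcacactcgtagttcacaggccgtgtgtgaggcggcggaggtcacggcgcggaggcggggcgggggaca

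CACCC was found in 6 of the 9 windows of members and in 57.5% of all 32851 windows. *Bckdhb* held 2 copies, starting 214 and 188 bases before the RefSeq start, and *Ivd* held 1, starting 60 bases before it. *Bcat2* and *Mccc1*, whose low and high *Vdac2* libraries overlapped, held 1 and 2 copies. The windows of *Bckdha*, *Ppm1k* and *Hibch* held none. AAGGTCA, an extended recognition sequence of nuclear receptors such as the oestrogen-related receptors, was found in 0 of the 9 windows and in 4.72% of all windows, with both strands searched. These matches are a description of the letters only.

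Per kilobase of annotated exon, *Bckdha* was the most abundant member, with a median of 113 CPM per kb over the 8 libraries other than library 3 (range 91.4 to 146). *Ivd* followed at 61.2 CPM per kb and *Ppm1k* at 41.5 CPM per kb, and the ranges of these 2 genes overlapped (48.1 to 74.7 and 34.0 to 52.2). *Mccc2*, *Dbt*, *Bckdhb*, *Hibadh* and *Hibch* came next, between 25.3 and 16.5 CPM per kb, and neighbours in that order overlapped. *Bcat2* (11.6 CPM per kb) and *Mccc1* (8.36 CPM per kb) were lowest, and their ranges did not overlap (9.88 to 12.9 and 6.30 to 9.40). The lengths join the exons of all annotated transcripts, so a gene with rarely used long exons is understated.

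The BCKDH subunit *Dbt* showed the clearest separation between the sets of libraries. *Dbt* (ENSMUSG00000000340) spans positions 116513070 to 116549981 of chromosome 3 on GRCm38, and libraries 1, 5, 7 and 9 held 67.8, 65.3, 69.8 and 70.2 CPM of it. It was at 91.3, 88.8, 86.5 and 92.5 CPM in libraries 2, 4, 6 and 8. Every low *Vdac2* library lay below every high one, and the median of the low libraries was 76.4% of that of the high libraries (log2 ratio -0.39). The spread within the sets was small, with a pooled SD of 0.046 on the log2 scale.

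*Bckdhb* (ENSMUSG00000032263, chromosome 9 from 83925145 to 84124240), the beta subunit of E1, was at 27.5, 31.7, 34.7 and 32.8 CPM in libraries 1, 5, 7 and 9 and at 41.8, 38.5, 46.2 and 51.6 CPM in libraries 2, 4, 6 and 8. The sets did not overlap, and the low median was 73.3% of the high one. *Bckdha* (ENSMUSG00000060376, chromosome 7 from 25629946 to 25658981), the alpha subunit of E1, was at 182, 174, 175 and 218 CPM and at 244, 251, 209.8 and 277 CPM in the same order. Its low median was 72.3% of the high one, the lowest share among the 10 members, but library 9 lay above library 6, so the sets overlapped. Library 9 is labelled KO with low *Vdac2* and library 6 is labelled KO with high *Vdac2*.

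*Ppm1k* (ENSMUSG00000037826, chromosome 6 from 57506502 to 57535468), the phosphatase of the complex, was at 211, 204, 250.0 and 244 CPM in the low libraries and at 274, 249.6, 292 and 315 CPM in the high ones. The sets met at a single pair of libraries, library 7 at 250.0 CPM and library 4 at 249.6 CPM. The low median was 80.4% of the high one. *Bcat2* (ENSMUSG00000030826, chromosome 7 from 45570153 to 45589711), the transaminase at the entry of the pathway, was at 38.5, 45.4, 44.7 and 44.9 CPM in the low libraries and at 47.0, 44.1, 50.3 and 49.3 CPM in the high ones. Its sets overlapped, and the low median was 93.1% of the high one.

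**Figure D1:**
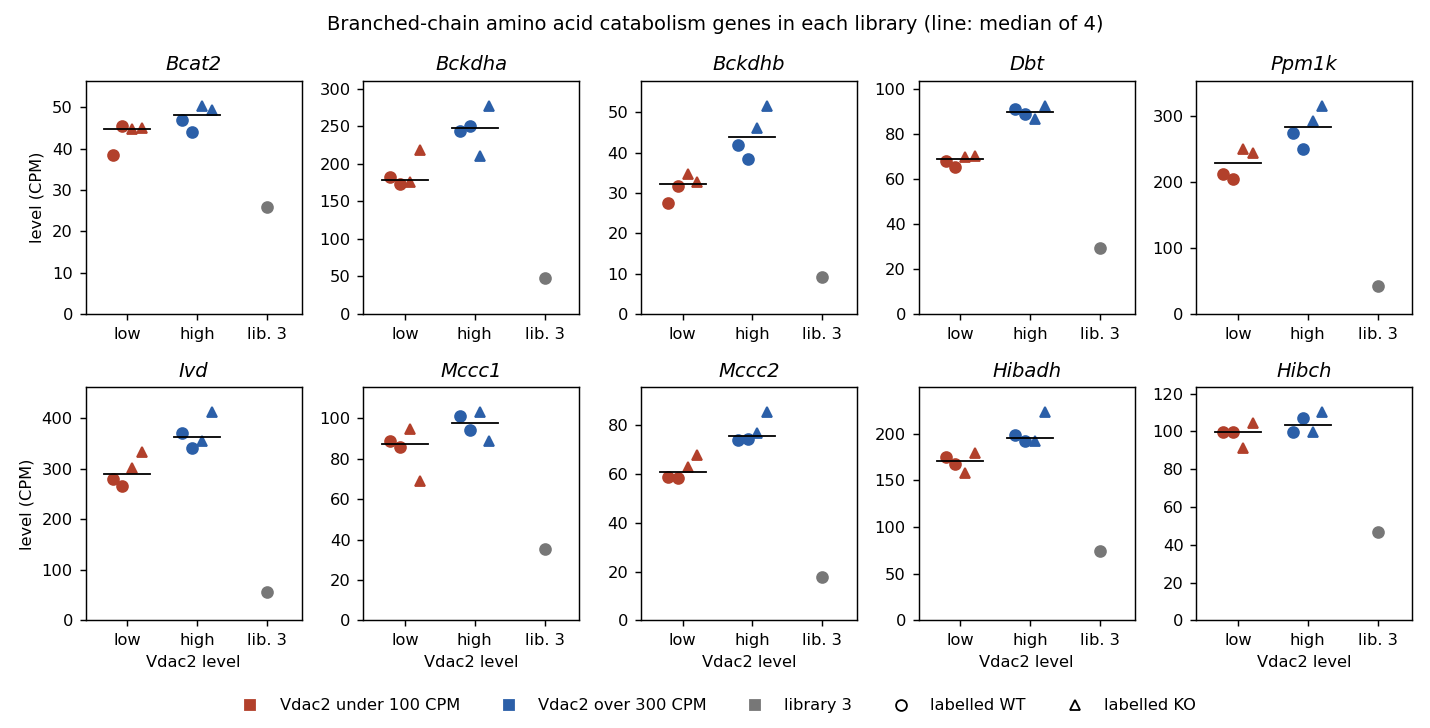
Level of each of the 10 genes in CPM, with 1 point per library, split by Vdac2 level into low (libraries 1, 5, 7 and 9), high (libraries 2, 4, 6 and 8) and library 3, where circles are labelled WT, triangles are labelled KO and lines are medians of 4. The low points of Dbt end at 70.2 CPM and its high points begin at 86.5 CPM, and library 3 is the lowest library in all 10 panels.

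Among the leucine enzymes, *Ivd* (ENSMUSG00000027332, chromosome 2 from 118861954 to 118882909), the isovaleryl-CoA dehydrogenase, was at 279, 265, 301 and 334 CPM in the low libraries and at 371, 341, 354 and 411 CPM in the high ones. The sets did not overlap, although only 334 and 341 CPM separated them, and the low median was 80.0% of the high one. *Mccc2* (ENSMUSG00000021646, chromosome 13 from 99948530 to 100015639), the beta subunit of the carboxylase, was at 58.6, 58.4, 63.0 and 67.7 CPM and at 74.1, 74.3, 77.0 and 85.2 CPM. Its sets did not overlap either, with a low median at 80.3% of the high one.

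*Mccc1* (ENSMUSG00000027709, chromosome 3 from 35959312 to 36000678) encodes the biotin-carrying alpha subunit. It was at 89.0, 85.7, 94.7 and 69.0 CPM in the low libraries and at 101, 94.2, 103 and 88.9 CPM in the high ones. The sets overlapped, because library 7 lay above libraries 4 and 8, and library 1 above library 8. Other genes lie over *Mccc1*, among them *Gm43080* on the same strand and *Mccc1os* on the opposite strand, whose own counts came to 5.78% and 3.78% of those of *Mccc1*, and how the counting divided such reads is not given in the sources used here.

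Of the valine enzymes, *Hibadh* (ENSMUSG00000029776, chromosome 6 from 52546228 to 52640389), the 3-hydroxyisobutyrate dehydrogenase, was at 175, 167, 158 and 179 CPM in the low libraries and at 199, 193, 192 and 223 CPM in the high ones. The sets did not overlap, and the low median was 87.4% of the high one. *Hibch* (ENSMUSG00000041426, chromosome 1 from 52844929 to 52920986), the hydrolase before it, was at 99.7, 99.5, 91.4 and 105 CPM and at 99.8, 107, 99.95 and 110.1 CPM. Its sets overlapped, and its low median was 96.1% of the high one, the closest of the 10 members with all 8 libraries. Without library 6, *Bcat2* was closer, with a log2 ratio of -0.068 against -0.11 for *Hibch*.

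In total, 5 of the 10 members (*Bckdhb*, *Dbt*, *Ivd*, *Mccc2* and *Hibadh*) had all 4 low *Vdac2* libraries below all 4 high ones, where 4.93% of the 16322 genes tested did. None of the 10 had all low libraries above all high ones, where 7.16% of the genes did. The median log2 ratio of the low to the high libraries was -0.32 over the members and 0.0050 over all genes tested. Members ran from -0.47 for *Bckdha* to -0.057 for *Hibch*, and *Hibch* ran from -0.11 to -0.0054 with a library left out. All 10 medians were lower in the low libraries, as were those of 7993 of the 16322 genes tested. Since the libraries were selected on *Vdac2*, nothing is tested on this contrast.

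**Figure D2:**
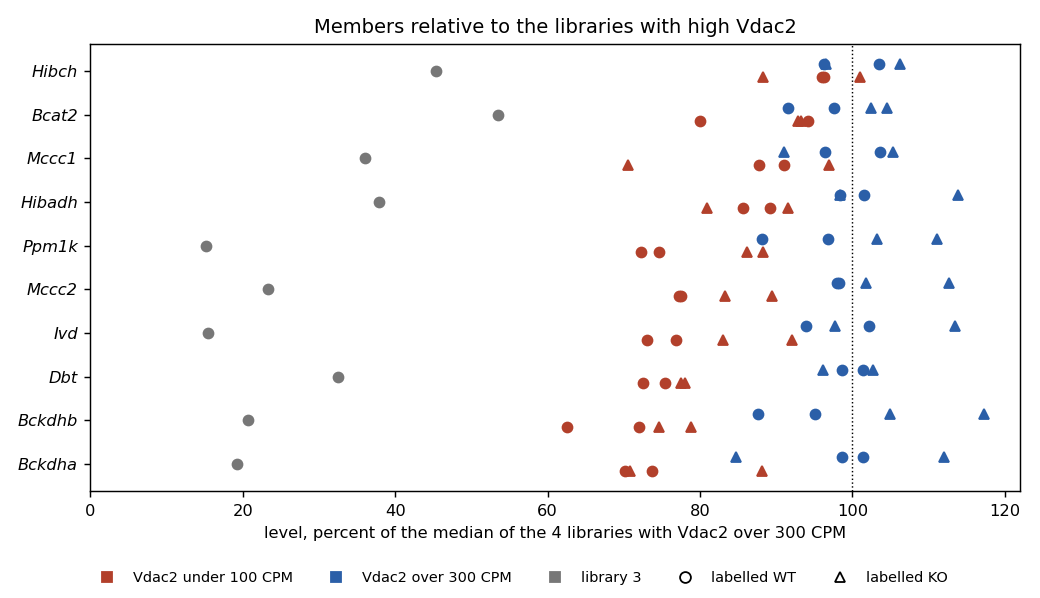
Level of each member in every library as a percent of the median of the 4 libraries with Vdac2 over 300 CPM (dotted line at 100), with genes ordered by the median of the low libraries. The median of the low libraries runs from 72.3% for Bckdha to 96.1% for Hibch, and library 3 lies between 15.1% for Ppm1k and 53.5% for Bcat2.

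The contrast had the same direction within each lane, where 2 low libraries stood against 2 high ones of the same label. Each lane is a part of the libraries compared above. For *Bckdhb*, *Dbt*, *Ivd*, *Mccc2* and *Hibadh*, which did not overlap over both lanes, direction and lack of overlap there were fixed in advance. In lane 1 the log2 ratio of the means ran from -0.48 for *Bckdha* to -0.055 for *Hibch*, and 9 of the 10 members did not overlap, all except *Bcat2*. In lane 2 it ran from -0.53 for *Bckdhb* to -0.099 for *Hibch*, and 7 of the 10 did not overlap, all except *Bckdha*, *Mccc1* and *Hibch*. With 2 libraries a side, 23.3% of all genes in lane 1 and 17.1% in lane 2 had the low libraries below the high ones.

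Library 3 stood far below both sets for every member in TMM-scaled CPM. *Ppm1k* was at 42.8 CPM there, 15.1% of the median of the high libraries, *Ivd* was at 55.8 CPM (15.4%) and *Bckdha* was at 47.7 CPM (19.3%). *Bcat2* was nearest to the other libraries, at 25.8 CPM (53.5%). Without TMM scaling it was nearer still, with 956 of 28489906 counts in library 3 and 1174 of 31305437 in library 1. In CPM of library 3, the other members were as follows. *Bckdhb* was at 9.09 CPM, *Dbt* at 29.2 CPM, *Mccc1* at 35.2 CPM, *Mccc2* at 17.6 CPM, *Hibadh* at 74.1 CPM and *Hibch* at 47.0 CPM. In the same library the 9 cardiomyocyte markers summed to 54315 CPM, against 140673 to 175541 CPM elsewhere, and 9.07% of reads were mitochondrially encoded, against 16.8% to 19.2% elsewhere. Fibroblast markers summed to 5367 CPM there against 968 to 1463 CPM elsewhere, macrophage markers to 1823 against 343 to 799 CPM, and atrial markers to 3351 against 74.8 to 1526 CPM. Their part in the levels of library 3 was not tested. The study left out 1 WT sample for poor RNA quality without naming it, and whether that was library 3 is not known.

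The other genes of the pathway were described from a list of 19, all of which passed the filter. Of these, 9 had all low *Vdac2* libraries below all high ones and 0 had them above, and 18 had a lower median, with a median log2 ratio of -0.19 over the list. *Dld*, the E3 subunit, was at 371 to 404 CPM in the low libraries and at 430.2 to 451 CPM in the high ones. The propionyl-CoA carboxylase subunits *Pcca* (54.3 to 61.7 against 72.8 to 74.9 CPM) and *Pccb* (65.6 to 82.3 against 84.5 to 97.8 CPM) did not overlap. The enzymes *Aldh6a1* (286 to 309 against 323 to 368 CPM), of valine, and *Mut* (164 to 185 against 188 to 214 CPM), the methylmalonyl-CoA mutase, did not overlap. *Auh*, the next leucine enzyme, was at 62.2 to 75.9 against 79.3 to 97.9 CPM. *Echs1*, the short-chain enoyl-CoA hydratase (290 to 318 against 335 to 398 CPM), and *Mmaa* (37.3 to 40.1 against 41.4 to 44.2 CPM), which serves the cobalamin cofactor of the mutase, complete the enzymes that did not overlap. *Klf15*, the transcription factor, was at 45.1 to 48.2 CPM in the low libraries, at 48.5 to 64.1 CPM in the high ones and at 5.91 CPM in library 3.

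*Bcat1*, the cytosolic transaminase, was the exception in direction. It was at 1.83 to 2.30 CPM in the low libraries and at 1.18 to 2.02 CPM in the high ones, which overlapped, and at 39.9 CPM in library 3. The kinase *Bckdk* was at 71.5 to 84.6 CPM and at 82.7 to 92.9 CPM, with an overlap, and its low median was 87.1% of the high one. The carrier *Slc25a44*, which brings branched-chain amino acids into mitochondria, had a low median at 99.5% of the high one.

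Other mitochondrial lists were set beside the members. Of 10 fatty acid oxidation genes, 9 had all low libraries below all high ones, with a median log2 ratio of -0.33. Of 16 nuclear genes of the respiratory chain and ATP synthase, 2 did, with a median log2 ratio of -0.17 and 16 of 16 medians lower. The counts of 2 lists rested on single libraries, since the respiratory chain count was 13 without library 9 and 4 without library 2, and the count of the other pathway genes was 16 without library 9. Over all genes, 8.30% had the low libraries below the high ones without library 9 and 6.11% without library 2. No difference between these lists was tested.

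**Figure D3:**
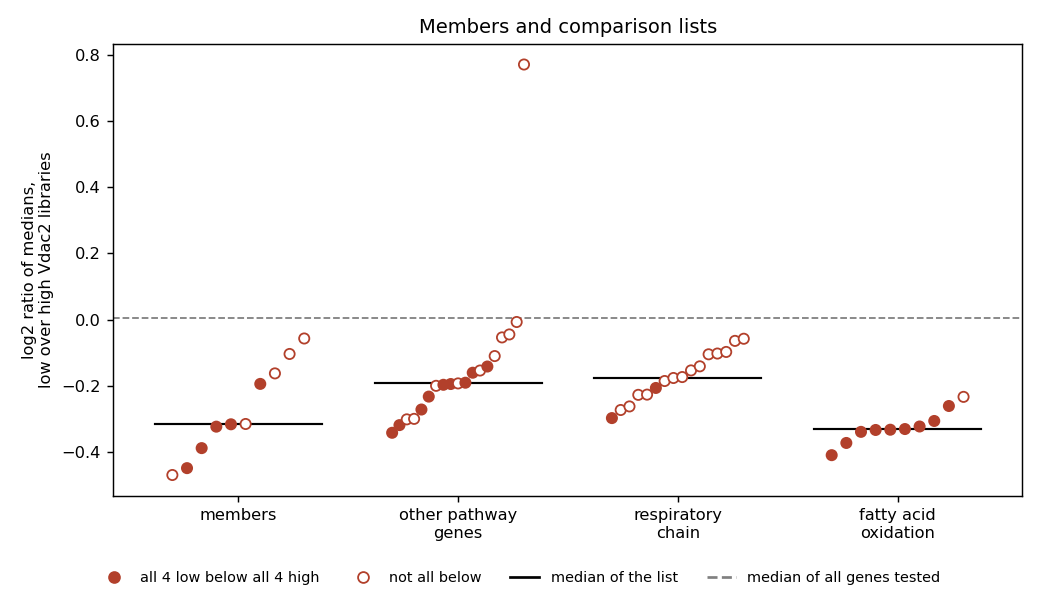
Log2 ratio of the median of the 4 low to the median of the 4 high Vdac2 libraries for each gene of 4 lists, where filled points had every low library below every high one, black lines are list medians and the dashed line is the median of all genes tested. The members have a median of -0.32, the other pathway genes -0.19, the respiratory chain -0.17 and fatty acid oxidation -0.33, and Bcat1 is the point at 0.77.

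Cell type markers differed along the same contrast, and their part in the members' levels was not tested. The 9 cardiomyocyte markers summed to between 140673 and 152426 CPM in the low *Vdac2* libraries and between 160266 and 175541 CPM in the high ones, with 2 of the 9 not overlapping. The 7 fibroblast markers summed to 1432 to 1463 CPM against 968 to 1245 CPM, and the 7 macrophage markers to 559 to 799 CPM against 343 to 518 CPM. In both lists 3 of the 7 had all low libraries above all high ones, and no marker of the 3 lists was at 0 in any library. In bulk tissue, fewer cells of a type and less RNA per cell cannot be told apart. The 6 endothelial markers summed to 511 to 642 against 616 to 733 CPM, the 5 smooth muscle and pericyte markers to 1175 to 1405 against 1168 to 1378 CPM, and the 4 erythroid markers to 666 to 1306 against 568 to 1960.0 CPM. Those of adipocytes, a cell type that also uses this pathway, summed to 473 to 618 against 496 to 618 CPM, but only 1 of the 5, *Fabp4*, which endothelial cells also express, passed the expression filter. The other adipocyte markers, *Adipoq*, *Plin1*, *Cidec* and *Lep*, were each at 0 in at least 1 library. The 4 atrial markers, *Nppa* among them, summed to 160.2 to 1526 against 74.8 to 106 CPM, and *Sln* was at 0 in at least 1 library. Of these 4, 2 had all low libraries above all high ones, where 7.16% of the genes tested did. The paper reports raised *Nppa* expression in its KO mice, so *Nppa* does not mark atrial tissue alone.

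Divided by the geometric mean of the cardiomyocyte markers of the same library, 1 of the 10 members, *Bckdhb*, kept all low libraries below all high ones, where 0.649% of all genes did on that scale. The median log2 ratio was then -0.11 over the members and 0.22 over all genes tested. The 3 BCKDH subunits remained furthest below 0, at -0.28 for *Bckdha*, -0.26 for *Bckdhb* and -0.22 for *Dbt*, while *Bcat2* (0.074), *Mccc1* (0.096) and *Hibch* (0.13) lay above 0. Divided by the respiratory chain list, *Dbt*, *Ivd* and *Mccc2* did not overlap, where 0.809% of all genes had the low libraries below the high ones. *Bckdhb* overlapped on this scale, with the lowest log2 ratio of the 10 members at -0.39. The median was -0.14 over the members and 0.18 over all genes, and *Bcat2*, *Mccc1* and *Hibch* again lay above 0. On the cardiomyocyte scale 0 of the 19 other pathway genes, 0 of the 16 respiratory chain genes and 0 of the 10 fatty acid oxidation genes had all low libraries below all high ones. On the respiratory chain scale the fatty acid oxidation genes had as many without overlap as the members, 3 of 10, and the other pathway genes had 1 of 19. The median log2 ratio of the fatty acid oxidation genes was -0.12 on the cardiomyocyte scale and -0.15 on the respiratory chain scale, near those of the members.

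**Figure D4:**
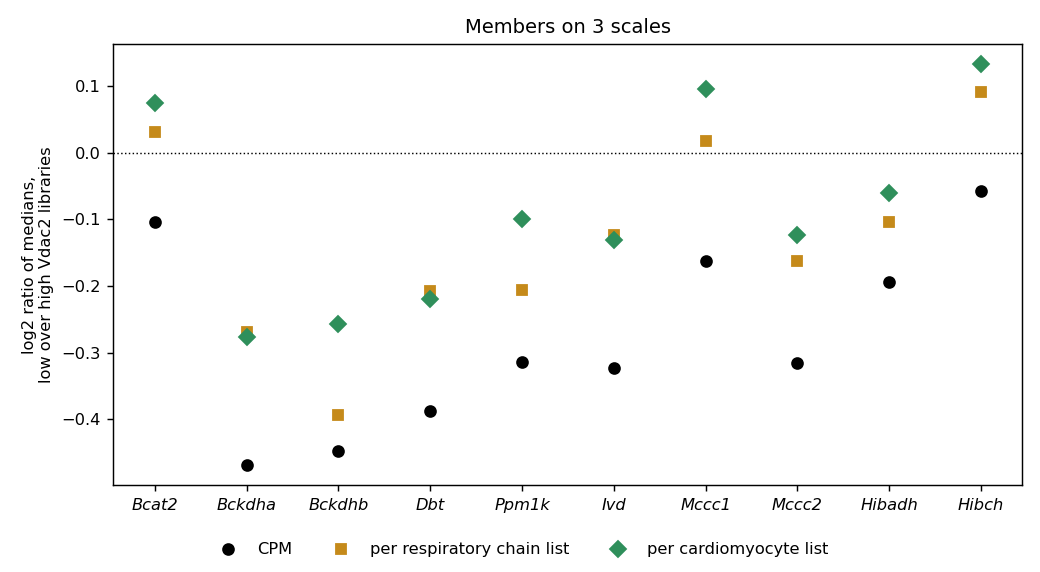
Log2 ratio of the median of the 4 low to that of the 4 high Vdac2 libraries for each member on 3 scales, CPM, CPM divided by the respiratory chain list and CPM divided by the cardiomyocyte list of the same library. All 10 genes lie below 0 in CPM and 7 of 10 on the other scales, with Bcat2, Mccc1 and Hibch above 0.

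Between the deposited labels, a comparison of KO with WT used edgeR's quasi-likelihood test, although *Vdac2* does not separate these groups (an estimate of 0.35 on the log2 scale, standard error 1.19, adjusted p = 0.921). None of the 10 members passed an adjusted p of 0.05, where 0.0551% of the genes tested did (9 of 16322). At an unadjusted p under 0.05 the count was 0 of 10 members and 997 of the 16322 genes, and DESeq2 called 0 members and 70 genes after adjustment. All 10 estimates were higher in the libraries labelled KO, as were those of 7717 of the 16322 genes tested. The median log2 fold change was 0.26 over the members against -0.018 over all genes tested. The adjusted p of the members ran from 0.684 for *Bcat2* to 0.864 for *Mccc1*. *Ppm1k* had the largest estimate, 0.49 (standard error 0.42, adjusted p = 0.708), with mean levels ± SD of 196 ± 90.5 CPM under the WT label (n = 5) and 275 ± 33.9 CPM under the KO label (n = 4). *Bckdhb* averaged 29.7 ± 12.8 CPM against 41.3 ± 9.04 CPM over the same libraries, and its estimate was 0.48 (standard error 0.37, adjusted p = 0.696). *Dbt* was at 68.5 ± 24.9 CPM and 79.8 ± 11.5 CPM, a difference smaller than the SD under the WT label. Of the 19 other pathway genes, 0 passed, with a lowest adjusted p of 0.679, and 18 had higher estimates under the KO label (median log2 fold change 0.24). The same held for 10 of 10 fatty acid oxidation genes (0.23), of which 0 passed. Marker lists differed with the label as well, and their part in these estimates was not tested. Estimates were higher under the KO label for 9 of 9 cardiomyocyte markers (median log2 fold change 0.42) and 16 of 16 respiratory chain genes (0.33), and lower for 7 of 7 macrophage markers (-0.92) and 6 of 7 fibroblast markers (-0.32). They were also lower for 3 of 3 atrial markers tested (-0.81), 4 of 4 erythroid (-0.60), 4 of 6 endothelial (-0.053) and 4 of 5 smooth muscle and pericyte markers (-0.13). None of these genes passed.

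Library 3 carried much of these estimates. Without it, the log2 fold changes ran from -0.065 for *Mccc1* to 0.24 for *Bckdhb*, that of *Ppm1k* was 0.22, that of *Dbt* was 0.020 and that of *Hibch* was -0.0072, and the lowest adjusted p was 0.477 in the edgeR test.

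**Figure D5:**
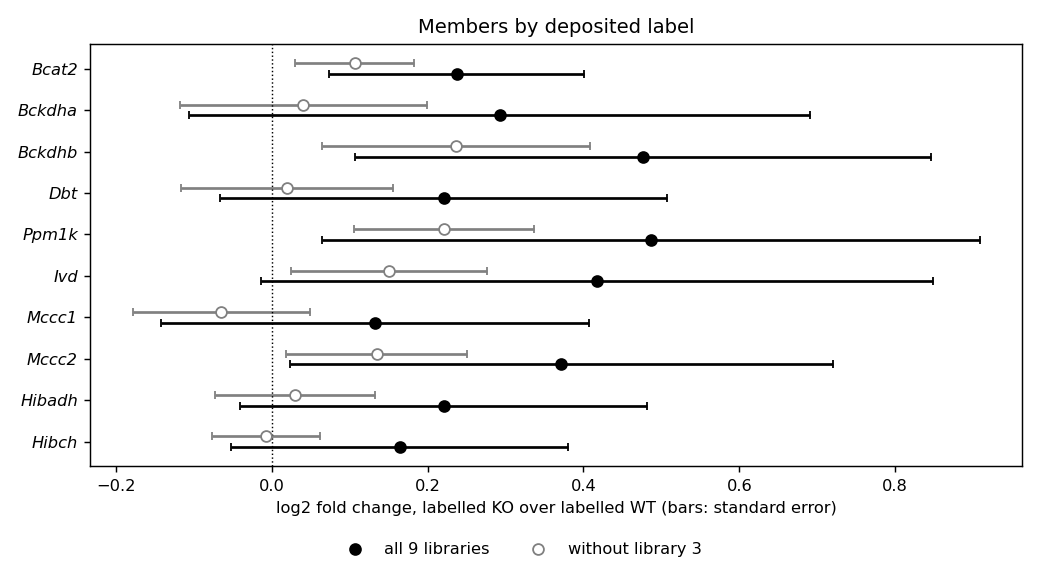
Log2 fold change of each member between the KO and WT labels, with bars of 1 standard error from edgeR, from all 9 libraries (filled) and without library 3 (open). With all libraries the estimates run from 0.13 to 0.49, and without library 3 from -0.065 to 0.24.

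Ratios of 2 genes in the same library do not depend on its scaling, so 3 were compared between the labels by an exact two-sided permutation test and adjusted over the 3, the smallest possible p being 0.00794. *Bckdha* over *Bckdhb*, in counts, was between 4.54 and 6.64 in the 9 libraries, with a mean log2 difference of labelled KO minus labelled WT of -0.14 (exact p = 0.270, adjusted 0.270). That difference was -0.066 without library 6 and -0.25 without library 9. *Mccc1* over *Mccc2* was 1.02 in library 9, 1.04 in library 8, 2.00 in library 3 and between 1.27 and 1.52 in the other libraries, a difference of -0.32 between the labels (exact p = 0.135, adjusted 0.270). *Ppm1k* over *Bckdk*, the phosphatase over the kinase, was 0.996 in library 3 and between 2.74 and 3.41 in the other 8 libraries. Its difference between the labels was 0.44 (exact p = 0.214, adjusted 0.270), and 0.13 without library 3. In the low *Vdac2* libraries this ratio was 2.95, 2.74, 3.36 and 2.89, and in the high ones 3.31, 2.92, 3.41 and 3.38, which overlapped.

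The genes whose log2 CPM was most like the mean of the standardized members over the 8 libraries without library 3 were *Ndc1* (Pearson r = 0.992), *Immp2l* (0.986), *Nmnat3* (0.984), *Coq3* (0.981) and *Aars2* (0.981). *Immp2l* encodes a peptidase of the inner mitochondrial membrane, *Nmnat3* a mitochondrial enzyme of NAD synthesis, *Coq3* a methyltransferase of coenzyme Q synthesis and *Aars2* the mitochondrial alanyl-tRNA synthetase. *Ndc1* encodes a nuclear pore protein. With library 3 added, r was -0.69 for *Ndc1* and between 0.957 and 0.994 for the other 4. These correlations are a description over 8 or 9 libraries that share 1 scaling and fall into the 2 *Vdac2* sets.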

How the data were processed

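For 9 libraries, left ventricular total RNA was sequenced with 50-base single-end reads after removal of ribosomal RNA with stranded libraries. The authors aligned reads to GRCm38 and deposited a raw count per Ensembl gene, without normalization. The submitters' processing notes name STAR 2.7.2c and featureCounts 1.6.3. The strand setting and the annotation release are not given in the sources used here.

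Counts were normalized by TMM and tested with edgeR 4.0.16 in R 4.3.3 (filterByExpr, robust quasi-likelihood F-test, Benjamini-Hochberg adjustment over 16322 genes), labelled KO (n = 4) against labelled WT (n = 5). DESeq2 1.42.0 was an alternative, and the study's own tool. A standard error is the size of the log2 fold change over the square root of F. Libraries with low and high *Vdac2* were only described. Symbols, lengths and coordinates are from GENCODE M21 (GRCm38) and promoters from RefSeq (GRCm38.p6). Depth was 27345052 to 44673988 counts, so 3 counts equal 0.0693 to 0.114 CPM, which covers counting error only. The script was tested on simulated data. All members, *Vdac2*, and other pathway genes without overlap were named by rule, along with the 5 genes most like the members. Genes of the respiratory chain and fatty acid oxidation lists were counted and not named. *Bckdk* was named by rule for its ratio to *Ppm1k* only, and the levels of *Bckdk*, *Bcat1* and *Slc25a44* were singled out after their values were seen. Members and lists were chosen with earlier results of these data known. Alternatives were other scalings, filters and marker scales, single lanes, and each library left out.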

Additional observations from a re-analysis of the deposited data

Results flagged for a closer look

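Within the labelled groups, a library was listed where its gap to the nearest other, over the whole range of its group, passed Dixon's 95% critical value. Of 36 sets of values, 11 passed. About 1 in 20 would by chance if the sets were independent, but they are not, and most that passed hold the same library 3. In the libraries labelled WT, library 3 was the lowest for *Mccc1* (0.764), *Mccc2* (0.719), *Hibadh* (0.75) and *Hibch* (0.872), so 4 of the 10 members were listed. It was also the lowest for *Ppm1k* over *Bckdk* (0.753) and for the summed cardiomyocyte (0.806), respiratory chain (0.816) and fatty acid oxidation lists (0.714). It was the highest for the summed fibroblast (0.932) and macrophage lists (0.776). In the libraries labelled KO, library 9 was the lowest for *Ppm1k* over *Bckdk* (0.903), at 2.89 against 3.36 to 3.41.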

How the results depend on the processing

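In all 15 alternatives to the labelled comparison, 0 of the 10 members passed, and 2 of their 150 fold change estimates were below 0, both without library 3. With a library left out, the estimate ran from -0.065 to 0.24 for *Mccc1* and from -0.0072 to 0.23 for *Hibch*. Over all genes the count of 9 became 70 with DESeq2 and 0 with at least 10 counts in every library, where 875 genes had an unadjusted p under 0.05. With a library left out it ran from 5 to 62, the highest without library 3. Of the 3 ratios, none changed direction with a library left out, and adjusted p ran from 0.161 to 0.571 in exact permutation tests.

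In the *Vdac2* description, the 5 members without overlap became 1 on the cardiomyocyte scale, 3 on the respiratory chain scale and 9 within lane 1, where 0.649%, 0.809% and 23.3% of all genes did not overlap in that direction. With a library left out the count ran from 5 to 7. It could not fall below 5 there or within a lane, since removing libraries cannot make separate sets overlap. The genes with all low libraries below all high ones, 804 at first, became 434 when total counts set the scale, and those above numbered 1837 in place of 1169. With a library left out, these counts ran from 998 to 1354 and from 1431 to 1617, since fewer libraries overlap less often. Of 170 median ratios of members under alternatives, 6 were above 0. The alternatives for the 3 comparison lists were chosen after seeing the data, and their counts within lane 1 were 18 of 19 other pathway genes, 13 of 16 respiratory chain genes and 10 of 10 fatty acid oxidation genes. Within lane 2 they were 12 of 19, 8 of 16 and 10 of 10, where 17.1% of all genes did not overlap in that direction. No paired analysis was possible because the library numbers are not shared between the labels. Each member had at least 337 counts in every library, and no comparison at matched depth was made.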
